A study of Mus musculus with 3 samples.

Results

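The genes described here are 8 genes by which phagocytes recognise and take up dying cells, namely Mertk, Axl, Tyro3, Gas6, Pros1, Timd4, Stab1 and Mfge8. They were chosen by name, and all 8 were found among the 36835 genes that had a level in each of the 3 RNA-sequencing libraries of the study. The libraries came from BALB/C mice carrying a tumor of Renca, a mouse renal cancer cell line, injected into the kidney. The study's text names the injected cells as Renca Ch+ L+, a line carrying Cherry and luciferase. F4/80 and CD11b sorted the macrophages called M1 (type-1) and M2 (type-2) from 30 pooled tumors, and TCRβ and CD4 sorted the CD4 T cells, which one label field places in 4 pooled spleens and another in the tumors. The harvest is given as day 14 in one field and as day 16 in another. The labels name no drug treatment and no genetic change of the mice in these 3 groups. There was 1 library for each cell subset, so that no value has a replicate error, no difference could be tested, and every fold below describes those libraries.

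A dying cell turns the lipid phosphatidylserine to its outer surface, where a phagocyte reads it. Some receptors, such as Timd4 and Stab1, bind the lipid themselves. Mertk, Axl and Tyro3, the TAM family of receptor tyrosine kinases, bind it through the bridging proteins Gas6 and Pros1, while Mfge8 bridges it to αv integrins. In macrophages this silent removal is also known to restrain inflammatory cytokine production.

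Before these genes are described, the cell type markers of each library have to be given, because they went against 2 of the 3 labels. Of 10 macrophage markers 0 were highest in the M2-labelled library, where their summed level was 559.9 FPKM, against 9363 in CD4 and 7978 in M1. Of 10 T-cell markers all 10 were highest in the M2-labelled library, with a summed level of 1657 FPKM against 17.0 in CD4 and 6.006 in M1. Most of the sum in the CD4-labelled library was the gene Cd4 itself, at 15.2 FPKM there, 0.870 in M1 and 166.3 in M2. None of these 20 markers was listed at 0 in a library. By these markers the M2-labelled library was like T cells, and those labelled CD4 and M1 were like macrophages. FPKM counts the fragments of a transcript, divided by its length and by the size of the library. The names M1, M2 and CD4 below stand for the labelled libraries only, and each direction rests on those labels. The comparison of the libraries labelled CD4 and M1 leaves out the M2-labelled library, and both of these libraries had the macrophage markers.

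Markers of other cells also differed between the libraries. The 6 renal epithelial markers summed to 188.8 FPKM in the M2-labelled library, 89.8 in CD4 and 73.8 in M1. The 6 neutrophil markers summed to 223.5, 10.4 and 47.3 FPKM in the same order, with Ly6g listed at 0 in M2 and Camp at 0 in the others, and the 5 B-cell markers to 47.0, 0.492 and 0.405, with Pax5 at 0 in all. The 5 endothelial markers summed to 36.7, 4.36 and 3.78, nearly all of it Pecam1 at 35.0 FPKM in the M2-labelled library, and the 5 dendritic cell markers to 9.74, 31.9 and 126.1, of which Itgax made up most, while Flt3, Clec9a and Xcr1 were highest in the M2-labelled library, with Flt3 at 2.19 FPKM against 0.227 in CD4 and 0.314 in M1. The 5 fibroblast markers were all highest in the CD4-labelled library, where they summed to 31.5 FPKM against 9.93 in M2 and 6.86 in M1. The part of these cells in the levels of the uptake genes was not tested. In sorted bulk samples, fewer cells that express a gene and less of its RNA per cell cannot be told apart.

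The sequences below show what sets the TAM receptors apart and where the 2 Mfge8 transcripts differ, since the results turn on which receptor and which transcript was present. All are coding sequence of build NCBIM37, also called mm9. The coding sequence of Mertk was 63.0% identical to that of Axl and 61.6% identical to that of Tyro3, and those of Axl and Tyro3 were 61.3% identical. The first set shows the kinase motif that is a signature of the family. Capitals mark the 21 bases that encode it, at chr2:128618779-128618808 on the forward strand in exon 17 of Mertk, chr7:26546457-26546486 on the reverse strand in exon 18 of Axl, and chr2:119638636-119638665 on the forward strand in exon 17 of Tyro3.
Mertk-001: cctgtgAAGTGGATCGCCATCGAGAGCctg
Axl-001: ccagtcAAGTGGATTGCTATTGAGAGTctg
Tyro3-002: cccgtcAAGTGGCTGGCCCTGGAGAGCttg
Of the 21 bases in capitals, Mertk shared 17 with Axl and 17 with Tyro3, and Axl shared 15 with Tyro3.

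Mfge8 lies on the reverse strand of chromosome 7 from 86278655 to 86293946. Its longer transcript has 10 exons and differs from the shorter, with 9, by exon 4 of 111 bases at chr7:86288164-86288274, which adds 37 codons in frame. This added stretch is known as the proline- and threonine-rich domain of the long form of the protein. In the line for the long form, capitals mark the first bases of exon 4, and in the line for the short form they mark the exon that follows directly when exon 4 is skipped. The third line gives the codons for arginine, glycine and aspartate by which Mfge8 holds integrins, in capitals, at chr7:86290185-86290214 in exon 3 of both transcripts.
Mfge8, long form: tgtgaaaccgAGACCAACTACTACAACCTG
Mfge8, short form: tccactgtgaaaccgGTTGTTCTACACAGC
Mfge8, shared: ttggacacacagCGTGGGGACatcttcacc

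The uptake genes differed in the library where each was highest. Stab1, Gas6, Pros1, Mertk and Timd4 were highest in the CD4-labelled library, Axl was highest in M1, and Mfge8 and Tyro3 were highest in M2. The library labelled M2 had the lowest level of Mertk, Axl, Pros1, Timd4 and Stab1. Added up, the 8 genes were at 864.3 FPKM in the CD4-labelled library, 281.6 in M1 and 143.1 in M2. The leading gene also differed, with Stab1 at 43.9% of this sum in the CD4-labelled library, Axl at 52.3% in M1 and Mfge8 at 55.8% in M2.

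**Figure D1:**
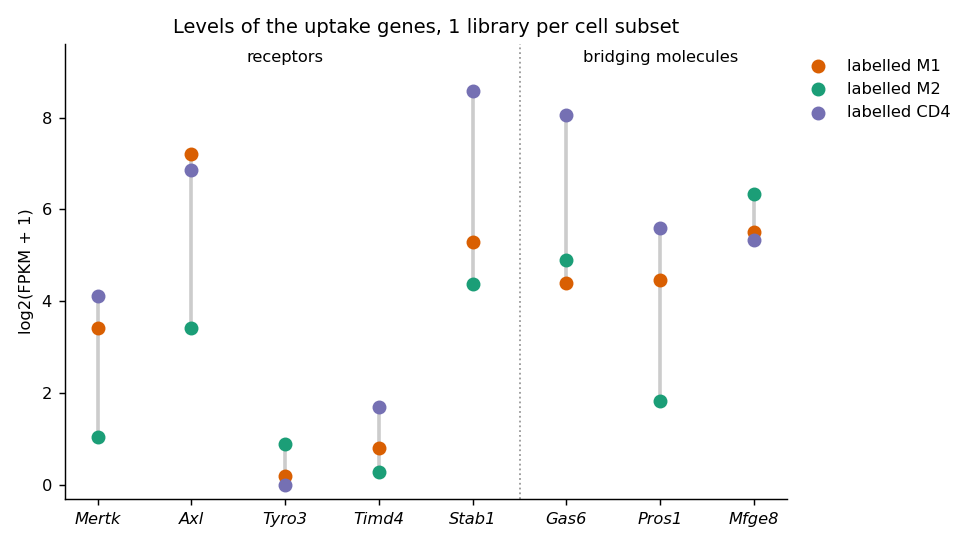
Level of each uptake gene on the log2(FPKM + 1) scale (vertical axis) in the libraries labelled M1, M2 and CD4, with 1 point per library and a grey bar from the lowest to the highest. Stab1 and Gas6 reach 8.57 and 8.06 in the CD4-labelled library, Tyro3 stays below 1 in each, and Mfge8 has its highest point in the M2-labelled library.

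Among the TAM receptors, Axl was the most abundant in every library. Axl (ENSMUSG00000002602, chromosome 7 from 26542292 to 26573724) had 147.3 FPKM in the M1-labelled library, 114.5 in CD4 and 9.64 in M2. It is the TAM receptor known to depend on Gas6 as its ligand. Its level in M1 was 1.29 times that in CD4, with a 95% interval of 1.27 to 1.30, and 15.3 times that in M2, with an interval of 14.7 to 15.9. These intervals are exact binomial intervals on estimated fragment numbers, and they cover counting error and not the variation between mice. Nor do the intervals given for any gene cover the choice of rows. Over all rows Axl was at 147.7 FPKM in M1 and 14.2 in M2, and the log2 ratio of M2 to M1 was -3.29 in place of -3.80.

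Mertk (ENSMUSG00000014361, chromosome 2 from 128524692 to 128628630), the TAM receptor best known for clearance of dying cells by macrophages, was at 16.3 FPKM in the CD4-labelled library, 9.62 in M1 and 1.07 in M2. The value in M2 corresponds to about 253 fragments. The level in CD4 was 1.69 times that in M1 (interval 1.61 to 1.78) and 15.2 times that in M2 (13.4 to 17.4). Over all rows Mertk was at 13.2 FPKM in M1, and the log2 ratio of CD4 to M1 was 0.29 in place of 0.70. Axl exceeded Mertk in each library, by 15.3 times in M1, 9.02 times in M2 and 7.02 times in CD4 in the rows used. Over all rows Axl and Mertk were at 147.7 and 13.2 FPKM in M1, and at 14.2 and 1.07 in M2. The excess was then largest in M2, so that its order across libraries depends on which rows are summed.

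Tyro3 (ENSMUSG00000027298, chromosome 2 from 119623469 to 119643840), which is best known from the nervous system, was at 0.860 FPKM in the M2-labelled library and 0.154 in M1, and was listed at 0 in CD4. Of the 8 Tyro3 transcripts used, only Tyro3-002 was above 0. A level listed at 0 in this table can be a failed estimate, because 6 or 7 of 71 genes for cytosolic ribosomal proteins were also listed at 0 in each library. For Tyro3 no fold against the CD4-labelled library is therefore given. Between M2 and M1 the fold was 5.60 (interval 3.91 to 8.21), from about 209 and 36 fragments. That interval does not cover the choice of rows: over all rows Tyro3 was at 4.32 FPKM in M2, above Mertk at 1.07, with 0.524 in CD4 and 0.154 in M1, and the log2 ratio of M2 to M1 was 2.21 in place of 0.69. Of the summed level of the TAM receptors, Tyro3 made up 7.43% in the M2-labelled library and 0.0979% in M1, with the rows used here.

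Receptors that bind phosphatidylserine directly were far apart in level. Stab1 (ENSMUSG00000042286, chromosome 14 from 31952199 to 31981827) encodes stabilin-1, a large scavenger receptor of macrophages and sinusoidal endothelium. It was at 379.2 FPKM in the CD4-labelled library, 37.9 in M1 and 19.8 in M2. In the CD4-labelled library this level was above 99.5% of the genes with a level above 0. It was 10.01 times that in M1 (interval 9.84 to 10.2) and 19.1 times that in M2 (18.7 to 19.6).

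Timd4 (ENSMUSG00000055546, chromosome 11 from 46624302 to 46657834), a receptor of some resident macrophages that tethers phosphatidylserine, was low in every library. It was at 2.25 FPKM in the CD4-labelled library, 0.755 in M1 and 0.218 in M2. These levels correspond to about 365, 96 and 29 fragments, the fewest of the genes above 0 in all libraries. The level in CD4 was 2.98 times that in M1, with an interval of 2.37 to 3.77, and 10.3 times that in M2, with an interval of 7.06 to 15.6. Over all rows Timd4 was at 3.55 FPKM in CD4, 1.52 in M1 and 0.218 in M2.

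The bridging proteins did not share a pattern. Gas6 (ENSMUSG00000031451, chromosome 8 from 13465374 to 13494535) and Pros1 (ENSMUSG00000022912, chromosome 16 from 62854133 to 62929172) are vitamin K-dependent ligands of the TAM receptors, with 61.2% identical coding sequences. Gas6 was at 265.3 FPKM in the CD4-labelled library, 29.0 in M2 and 20.1 in M1. Pros1 was at 47.4 FPKM in the CD4-labelled library, 21.2 in M1 and 2.54 in M2. Gas6 was thus lowest in M1 and Pros1 lowest in M2. The ratio of Gas6 to Pros1 was 5.60 in the CD4-labelled library and 11.4 in M2, while both were at near the same level in M1, with a ratio of 0.949. Over all rows Pros1 was at 3.77 FPKM in M2 and Gas6 was unchanged. The ratio in M2 was then smaller, though still above that in CD4.

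Gas6 was 13.2 times higher in the CD4-labelled library than in M1, with an interval of 12.7 to 13.7. This was the largest fold between those libraries among the 8 genes as summed here, but with protein-coding transcripts alone, or the largest row alone, the log2 ratio of Stab1 was 4.04, above 3.66 for Gas6. Pros1 was 2.24 times higher in the same comparison (interval 2.16 to 2.32). Set beside the receptor it activates, Gas6 was at 0.136 times the level of Axl in M1, 2.32 times in CD4 and 3.01 times in M2. The order of M2 and CD4 rests on the rows used. Over all rows Axl was at 14.2 FPKM in M2 beside Gas6 at 29.0, a ratio below that in CD4.

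Mfge8 (ENSMUSG00000030605), also called lactadherin, was at 79.9 FPKM in the M2-labelled library, 44.7 in M1 and 39.4 in CD4. Measured as a fold, it had the narrowest range of the 8 genes. Its level in M2 was 1.79 times that in M1 (interval 1.73 to 1.85) and 2.03 times that in CD4 (1.97 to 2.096). In M1 it was 1.13 times its level in CD4 (1.09 to 1.18). In M1 and M2 Mfge8 exceeded Gas6 by 2.22 and 2.75 times, and in CD4 it was at 0.148 times the level of Gas6. Of the 6 renal epithelial markers 5 were also highest in the M2-labelled library, Epcam being highest in M1 at 2.39 FPKM against 0.786 in M2, and their part in the level of Mfge8 was not tested.

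The genes were next set beside all genes, and a difference was counted where the ratio of FPKM + 1 reached 1 in size on the log2 scale. This scale understates the change of low genes. In the M2-labelled library against CD4, 6 of the 8 were lower, namely Stab1, Pros1, Axl, Gas6, Mertk and Timd4, with log2 ratios from -4.19 to -1.41. Of all genes 5.17% were lower by this measure, and 15.3% of those that reached 1 FPKM in either library. Mfge8 was the 1 gene that was higher, at a log2 ratio of 1.00 at the edge of the threshold, against 5.85% of all genes and 17.3% of those of at least 1 FPKM. The median log2 ratio of the 8 genes was -3.11, and that of the genes of at least 1 FPKM was 0.12. All 10 macrophage markers were also lower in this comparison, with a median log2 ratio of -4.09.

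In the M2-labelled library against M1, Axl, Pros1 and Mertk were lower, with log2 ratios of -3.80, -2.65 and -2.36. These are 3 of the 8 genes, where 4.90% of all genes and 14.5% of those of at least 1 FPKM were lower. Of the 8 genes 0 were higher, against 5.73% and 17.0%. Stab1, at -0.90, lay just inside the threshold, and the median of the 8 was -0.71 against 0.10. All 10 macrophage markers were lower in this comparison too, with a median log2 ratio of -3.35.

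In the CD4-labelled library against M1, the comparison without the M2-labelled library, Gas6, Stab1 and Pros1 were higher, with log2 ratios of 3.66, 3.29 and 1.13. Of all genes 2.20% were higher, and 6.98% of those of at least 1 FPKM. Of the 8 genes 0 were lower, against 2.28% and 7.24%. Timd4 at 0.89 and Mertk at 0.70 lay below the threshold, and Axl was at -0.36. The median of the 8 genes was 0.80 and that of the genes of at least 1 FPKM was -0.01. The log2 ratio of Gas6 was above that of 99.6% of these genes, and that of Stab1 above 99.4%. The macrophage markers were closer together in this comparison, with 2 of 10 higher, 0 lower and a median log2 ratio of 0.59, while 4 of 5 fibroblast markers were higher, with a median of 1.80. The part of either cell type in the level of Gas6 was not tested.

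**Figure D2:**
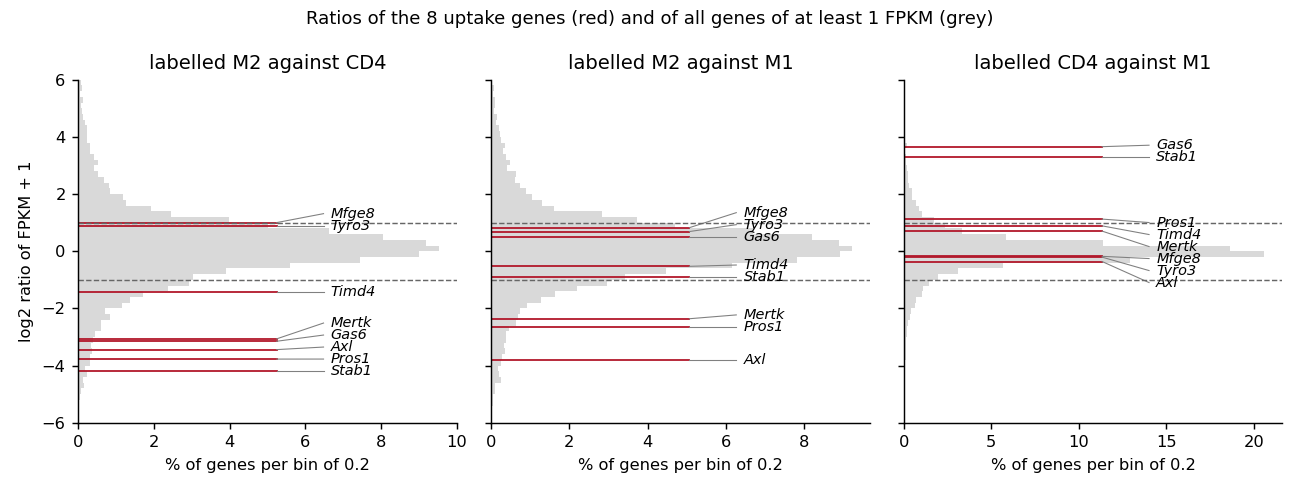
Log2 ratio of FPKM + 1 between libraries (vertical axis) for the 8 uptake genes, as red lines, over the distribution of all genes that reached 1 FPKM in either library compared, as grey bars in percent of genes per bin. Dashed lines mark ratios of 1 and -1, ratios beyond 6 in size are not drawn, and 6 of the 8 genes lie below the lower line for M2 against CD4.

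Levels of single transcripts are sums that Cufflinks divided by a model, so that transcripts sharing most bases are poorly told apart. Of 42 annotated transcripts of the 8 genes, 38 had a row with a value in each library, and 12 of these were above 0 in at least 1 library. The 4 without such a row were 1 of Axl and 3 of Tyro3. Gas6, Pros1, Timd4 and Tyro3 each had 1 transcript above 0, and the other 4 genes had a pair.

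The short form, which skips exon 4 shown above, was the main transcript of Mfge8 in every library. It was at 72.2 FPKM in the M2-labelled library, 33.8 in M1 and 33.3 in CD4. The long form had 7.70, 10.9 and 6.11 FPKM, in the same order. The long form thus made up 9.63% of Mfge8 in M2, 24.4% in M1 and 15.5% in CD4, and the higher level of Mfge8 in M2 lay in the short form. Only the 111 bases of exon 4 separate these transcripts, and the forms of the protein were not measured.

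Stab1 was listed differently in the libraries. Its full transcript Stab1-001, of 69 exons, was at 379.2 FPKM in the CD4-labelled library, 22.2 in M1 and 11.9 in M2. The transcript Stab1-004, which holds intron 53 of Stab1-001 (chr14:31956201-31956303, 103 bases) and is annotated as a retained intron, was at 15.7 FPKM in M1 and 7.96 in M2, and was listed at 0 in CD4. Stab1-004 also holds part of intron 48 of Stab1-001, and it shares 93.6% of its bases with Stab1-001. With protein-coding transcripts alone, the log2 ratio of Stab1 between CD4 and M1 became 4.04 in place of 3.29.

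For Mertk and Axl the division between transcripts was similar across libraries in the rows used. The shares leave out further rows of Mertk-001 at 3.57 FPKM in M1, and of Axl-001 at 4.58 in M2 and 0.387 in M1. Mertk-001, which encodes the full receptor, made up 74.3% of Mertk in the M1-labelled library, 73.3% in M2 and 68.5% in CD4, the rest being the noncoding Mertk-002. Axl-001 made up 74.9%, 81.9% and 75.6% of Axl, the rest being another protein-coding transcript, all of whose bases lie within Axl-001.

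**Figure D3:**
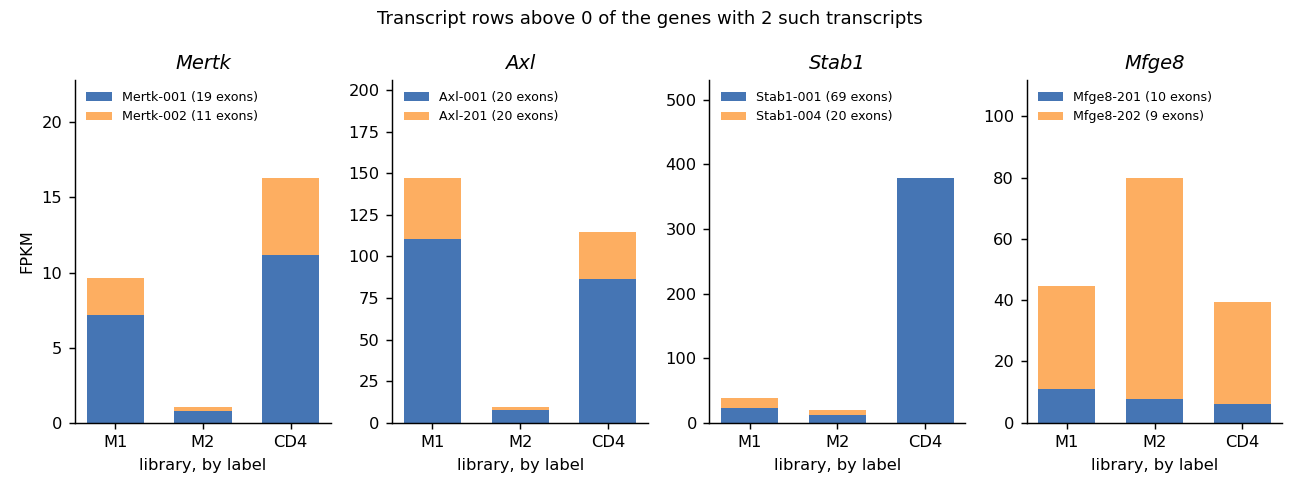
Level in FPKM (vertical axis, from 0) of the transcripts above 0 of Mertk, Axl, Stab1 and Mfge8, stacked by colour, in the libraries labelled M1, M2 and CD4. Stab1-004 is part of the Stab1 bars of M1 and M2 and is listed at 0 in CD4, and the short form makes up most of each Mfge8 bar.

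For each gene except Tyro3, which stayed under 1 FPKM, the nearest of all protein-coding genes were found by Euclidean distance between log2(FPKM + 1) levels over the 3 libraries. With so few libraries this is a likeness of levels only. The nearest to Axl was Sfpi1 at a distance of 0.33, with 138.8 FPKM in the M1-labelled library, 7.51 in M2 and 112.0 in CD4. Sfpi1 encodes PU.1, a transcription factor of myeloid cells. Emp1 followed at 0.46. Nearest to Mertk were Hlx (0.08) and Emilin1 (0.24), to Pros1 Lpcat2 (0.23) and Fgd2 (0.40), and to Timd4 Uaca (0.12) and A930039A15Rik (0.21).

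The gene nearest to Gas6 was Stab1, another of the 8, but at a distance of 1.15, the farthest of the nearest genes, and Pmp22 followed at 1.26. For Stab1 they were Ccl12 (0.60), which encodes a chemokine, and Fcgrt (0.65), which encodes the neonatal Fc receptor. Ccl12 was at 390.0 FPKM in the CD4-labelled library, 47.2 in M1 and 13.7 in M2. For Mfge8 they were Add1 (0.13) and Paip2 (0.16).

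The wider uptake pathway was described with 68 other genes in 7 groups. In the M2-labelled library against CD4, 24 were lower and 8 higher, and against M1, 25 were lower and 6 higher. Between the libraries labelled CD4 and M1, 6 were higher and 6 lower, and 56 were neither. As shares of the 68, 35.3% were lower and 11.8% higher in M2 than in CD4, where 15.3% and 17.3% of the genes that reached 1 FPKM were. Against M1 36.8% were lower and 8.82% higher in M2, where 14.5% and 17.0% of those genes were. Between CD4 and M1, 8.82% were higher and 8.82% lower, close to the 6.98% and 7.24% of those genes. The groups of 7 to 13 genes below are small beside these shares, and their counts are descriptions. Receptors and bridging molecules made up 10 of the 24 genes lower than in CD4 and 10 of the 25 lower than in M1.

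Among 13 other receptors, 6 were lower in the M2-labelled library than in CD4, and 6 than in M1. Each was 46.2%, beside 15.3% and 14.5% of the genes that reached 1 FPKM. The scavenger receptor gene Msr1 was at 7.96 FPKM in M2, 261.7 in CD4 and 203.1 in M1. Lrp1, a receptor for calreticulin and collectins on apoptotic cells, had 8.18, 70.4 and 93.8 FPKM, in the same order. Cd300lf and Cd36 were highest in the M1-labelled library, at 60.4 and 10.8 FPKM, and they were the receptors lower in CD4 than in M1. Over all rows Cd36 was at 40.4 FPKM in M1, 12.3 in CD4 and 3.38 in M2. Itgb3, the β3 chain that pairs with αv as a receptor for Mfge8, was the exception, at 13.6 FPKM in M2, 0.255 in CD4 and 0.466 in M1. The alternative β5 chain, Itgb5, had the opposite order, at 23.5 FPKM in M2, 98.2 in CD4 and 50.1 in M1. The αv chain itself, Itgav, was at 8.81, 11.98 and 9.74 FPKM.

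Of 7 bridging and eat-me molecules, 4 were lower in the M2-labelled library than in CD4, and 4 than in M1. Each was 57.1%, beside 15.3% and 14.5% of the genes that reached 1 FPKM. The complement C1q chains, which tag dying cells, were highest in the CD4-labelled library, with C1qa at 1690 FPKM against 440.4 in M1 and 64.9 in M2. C1qa, C1qb and C1qc were 3.84, 4.08 and 3.96 times higher in CD4 than in M1. Over all rows C1qb was at 6644 FPKM in CD4 against 363.5 in M1, so that its fold depends on which rows are summed. Thbs1, which encodes thrombospondin-1, had another pattern, at 59.3 FPKM in M1, 11.5 in CD4 and 6.63 in M2. Anxa1 was listed at 0 in each library.

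The engulfment machinery, which rearranges actin once a receptor is bound, held 12 genes. Of these 2 were higher and 2 lower in M2 than in CD4, and 0 higher and 4 lower than in M1. Between CD4 and M1, 0 were higher and 1 lower. The genes that were neither numbered 8, 8 and 11, in the same order. Against CD4, 16.7% were higher and 16.7% lower in M2, near the 17.3% and 15.3% of the genes that reached 1 FPKM. Against M1, 0 were higher and 33.3% lower, beside 17.0% and 14.5% of those genes. Rac1, the GTPase at the end of this pathway, was at 214.5 FPKM in the M1-labelled library, 195.1 in CD4 and 100.6 in M2. Elmo1 was at 23.2, 27.5 and 34.2 FPKM, and Dock2, a Rac activator of leukocytes, at 42.1, 35.1 and 72.8, in the same order. Abca7 was listed at 0 in CD4. It was counted as lower there than in M1 and as higher in M2 than in CD4. The sum over all its rows in CD4 was 11.2 FPKM.

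Of 8 genes for find-me signals and their receptors, 4 were lower and 2 higher in the M2-labelled library than in CD4, and 3 lower and 2 higher than in M1. Against CD4 that was 50% and 25%, beside 15.3% and 17.3% of the genes that reached 1 FPKM. Against M1 it was 37.5% and 25%, beside 14.5% and 17.0%. Cx3cr1, the receptor for the find-me chemokine CX3CL1, was at 139.9 FPKM in CD4, 28.6 in M1 and 4.38 in M2. P2ry6, a receptor for nucleotides, had 114.8, 70.3 and 4.14 FPKM, in the same order. S1pr1, which guides lymphocytes out of lymphoid organs, was at 117.5 FPKM in M2, against 4.14 in CD4 and 3.32 in M1. Over all rows S1pr1 was at 4851 FPKM in M2.

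Among 7 genes for lipid exposure and don't-eat-me signalling, 1 was lower and 1 higher in M2 than in CD4, and 1 lower and 0 higher than in M1. A single gene is 14.3% of this group. The share lower was thus near the 15.3% and 14.5% of the genes that reached 1 FPKM, and the share higher than in CD4 near 17.3%. The gene lower in both comparisons was Sirpa, the phagocyte receptor for CD47, at 43.5 FPKM in M2, 223.4 in CD4 and 236.8 in M1. Its ligand Cd47 was at 82.2, 51.7 and 60.8 FPKM.

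Nuclear receptors and their targets, which handle the lipid load after uptake, held 11 genes, of which 3 were lower and 0 higher in M2 than in CD4, and 4 lower and 1 higher than in M1. Against CD4 27.3% were lower, beside 15.3% of the genes that reached 1 FPKM. Against M1 36.4% were lower and 9.09% higher, beside 14.5% and 17.0%. Abca1, the cholesterol exporter, was at 60.8 FPKM in the CD4-labelled library, 14.1 in M1 and 4.86 in M2. The LXRα gene Nr1h3, which activates it, was at 7.77, 6.38 and 2.84 FPKM. Ucp2 was highest in the M1-labelled library, at 493.9 FPKM against 117.1 in CD4 and 83.1 in M2. Over all rows Ucp2 was at 243.3 FPKM in M2, above CD4.

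The last group held 10 genes that process TAM receptors, carboxylate their ligands or mediate their feedback. Of these 4 were lower and 2 higher in M2 than in CD4, and 3 lower and 2 higher than in M1. Against CD4 that was 40% and 20%, beside 15.3% and 17.3% of the genes that reached 1 FPKM. Against M1 it was 30% and 20%, beside 14.5% and 17.0%. Adam17, the protease that sheds MERTK, was at 49.7 FPKM in M1, 55.7 in CD4 and 20.9 in M2. The suppressor of cytokine signalling Socs3 was at 54.5, 53.6 and 19.8 FPKM, while Socs1 was highest in M2, at 15.3 FPKM against 6.14 in M1 and 1.99 in CD4. Ggcx, the carboxylase on which Gas6 and Pros1 depend, was at 3.56 FPKM in M1, 5.91 in CD4 and 4.73 in M2. Vkorc1, which recycles vitamin K for it, was at 24.2 FPKM in M1 and 43.3 in CD4, and was listed at 0 in M2. Both counts of lower genes in this group include Vkorc1 and rest in its case on that 0.

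**Figure D4:**
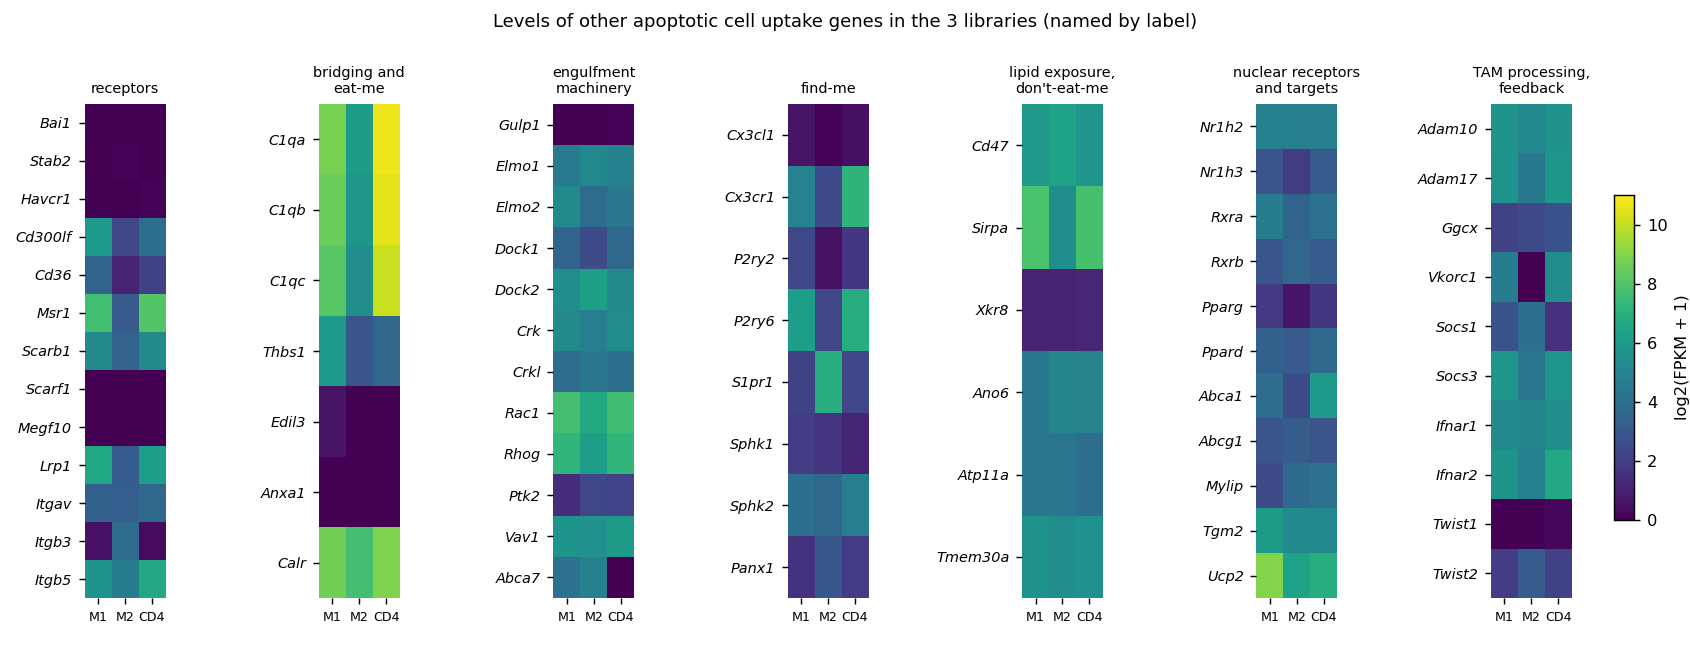
Levels of the other uptake genes, with 1 of the 68 not drawn, on the log2(FPKM + 1) scale (colour, from 0 to 11) in the libraries labelled M1, M2 and CD4, by functional group. The C1q chains have their brightest cells in the CD4-labelled library, S1pr1 and Itgb3 in M2, and Abca7, listed at 0 in CD4, is a dark cell among the engulfment genes.

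The ratios were recomputed with other ways of summing rows, scaling and transforming the values. The direction of Mertk, Axl, Pros1, Timd4 and Stab1 between the libraries labelled M2 and CD4 was the same in all of them. The threshold was crossed for Tyro3, Timd4, Mfge8, Mertk and Pros1 in at least 1 comparison and setting, while Axl, Gas6 and Stab1 stayed on their side of it.

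**Figure D5:**
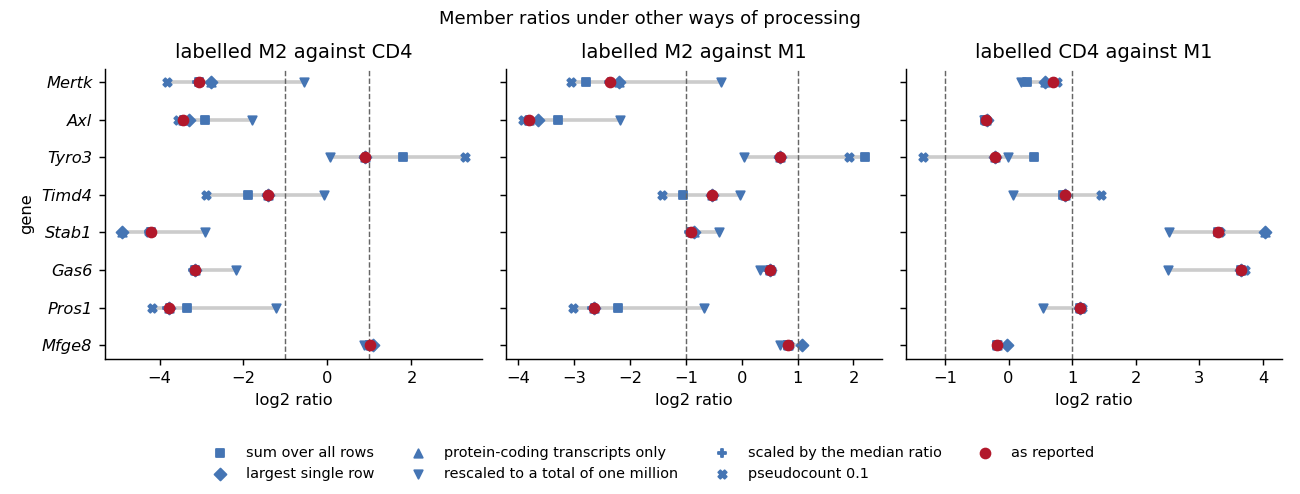
Log2 ratio of each uptake gene (horizontal axis) in the comparisons between libraries as reported (red) and under each other way of summing, scaling or transforming the values (blue symbols), with a grey bar over their range. Dashed lines mark 1 and -1. For M2 against CD4, those of Mertk range from -3.81 to -0.56 and those of Tyro3 from 0.05 to 3.26. Except with all rows summed, those of Tyro3 rest on its level listed at 0 in CD4, and 3.26 is the value with a pseudocount of 0.1. Rescaling each library to a fixed total draws ratios toward 0.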

How the data were processed

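Total RNA of sorted cells was sequenced on an Illumina instrument as paired reads, with 1 library each for M1, M2 and CD4. Per the paper's methods, the authors trimmed the reads by quality, aligned them with Bowtie and TopHat to mouse genome MM9, and assembled and quantified transcripts with Cufflinks guided by Ensembl. The submitters' processing notes also name Cuffdiff. The values the authors deposited are transcript levels in FPKM, in a table of 135070 rows with a column for each library and a dash for no value. Cufflinks divides fragments among overlapping transcripts by a model, which limits single transcript values, and how the assemblies were joined is not given in the sources used here.

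Each column heading matched a sample title. Of 92519 identifiers, 97.6% were found in GENCODE for NCBIM37, the same build. For each identifier the first row with values in all 3 columns was kept, and rows were summed per gene. Log2 ratios were taken of FPKM + 1, and a ratio of at least 1 in size was counted as a difference, without a test. The members and lists were chosen with earlier results of these data known. The genes named are the members, the genes of the lists, their markers, and the 2 genes nearest to each member of at least 1 FPKM. Of the listed genes, 1 is counted but not reported here by name.

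Depth is not part of FPKM. The commonest small product of FPKM and transcript length, taken as a single fragment, gave estimates of 58700000 fragments for the library labelled M1, 60800000 for M2 and 74800000 for CD4, from 171, 159 and 179 transcripts. Fragment numbers of members use these estimates and annotated lengths, and 95% intervals are exact binomial and leave out all but counting error. The arithmetic was checked on simulated data with known answers. Python 3.11.15, numpy 2.4.6, pandas 2.3.3, scipy 1.17.1, biopython 1.88 and matplotlib 3.10.9 were used.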

Additional observations from a re-analysis of the deposited data

Results flagged for a closer look

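Rows that were not used held further signal for 5 of the 8 genes. These are rows that carry the identifier of an annotated transcript but have a value in only 1 or 2 of the libraries, or follow a complete row of that identifier. They held 17 values for these genes, of which 9 were above the level of 3 fragments. Tyro3 had a further row of a transcript other than Tyro3-002 at 3.46 FPKM in the library labelled M2 and another at 0.524 FPKM in that labelled CD4, where the row used was listed at 0. Axl had further rows of Axl-001 at 4.58 FPKM in the library labelled M2 and 0.387 in that labelled M1. Mertk had a further row of Mertk-001 at 3.57 FPKM in the library labelled M1, and Pros1 had one of Pros1-001 at 1.23 FPKM in that labelled M2. Timd4 had further rows at 0.535 and 0.227 FPKM in the library labelled M1 and at 1.30 in that labelled CD4. With all rows summed, Tyro3 was at 4.32 FPKM in the library labelled M2, 0.524 in CD4 and 0.154 in M1. What these rows represent was not tested.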

How the results depend on the processing

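No paired analysis was possible because there was just 1 library to a group, and for the same reason none was left out. Of 144 recomputed ratios of single members, 128 kept their side of the threshold and their direction if beyond it, 9 passed it newly and 7 no longer passed it. With all rows summed, members higher in M2 numbered 2 against CD4 (1 as reported) and 1 against M1 (0 as reported). With the largest row alone, 1 was higher in M2 than in M1. With a pseudocount of 0.1 the numbers were 2 against CD4 and 1 against M1, and 1 member was lower in CD4 than in M1 (0 as reported), which was Tyro3, listed at 0 there. The 2 against CD4 also include Tyro3 and rest in its case on that 0.

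Rescaled to an equal total per library, the median log2 ratio of members was -0.89 for M2 against CD4 (-3.11 as reported) and 0.13 for CD4 against M1 (0.80 as reported). The number of members higher in M2 than in CD4 was then 0 and of those lower in M2 than in M1 was 1 (3 as reported). Other uptake genes numbered 2 higher and 12 lower for M2 against CD4 (8 and 24), 1 higher and 10 lower for M2 against M1 (6 and 25), and 3 lower for CD4 against M1 (6). Rescaling makes all values smaller beside the pseudocount. Scaled by the median ratio, 0 members and 5 other uptake genes were higher in M2 than in CD4, with Mfge8 at a log2 ratio of 0.94.

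With a log2 ratio of 2 required, 0 members were higher in M2 than in CD4. Other uptake genes numbered 4 higher and 11 lower for M2 against CD4, 2 and 13 for M2 against M1, and 3 and 3 for CD4 against M1. Among members of at least 1 FPKM the median for M2 against M1 was -1.63 (-0.71 as reported), because Tyro3 and Timd4 were left out. Other counts stayed within 1.5 times. Precision of Timd4 and Tyro3 is limited by their few fragments.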
